A study of Mus musculus with 6 samples.

Results

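Genes of the eukaryotic translation initiation factors (Eif) were followed in B cell progenitors of old and young mice. Members were taken from the symbols of the array annotation: a gene was included when its symbol begins with Eif and a digit and at least 1 probe set names that gene and no other. The rule gave 49 genes with 58 probe sets, of 19938 genes with 21789 single-gene probe sets on the array. A gene with more than 1 such probe set is given by the one with the highest mean over the 6 arrays, and 7 of the 49 genes have more than 1. Groups were formed by name: eIF1, eIF2, its exchange factor eIF2B, the eIF2 kinases, eIF3, eIF4, and eIF5 with eIF6.

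Initiation is the step at which the ribosome is placed on a messenger RNA. eIF2 carries the initiator tRNA to the small ribosomal subunit, where eIF1, eIF1A, eIF3 and eIF5 help to assemble a scanning complex. The eIF4 factors bind the cap and unwind the leader, and eIF5B joins the large subunit. The pathway is controlled mainly at eIF2, by kinases that respond to stress, and at the cap-binding protein eIF4E, by binding proteins that are released when mTOR is active. Developing B cells pass through bursts of growth and division and depend on this machinery for protein synthesis.

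The cells were sorted pro-B and pre-B cells, the progenitor stages around heavy chain rearrangement, analysed together from BALB/c mice, an inbred laboratory strain. The old group had 3 arrays of mice aged 24 months, and the young group had 3 arrays of mice aged 2 months. No treatment was applied in either group, and each array started from 100 ng of RNA that was amplified before hybridisation. The sources do not tell if each array is a single mouse or pooled mice, and the p-values therefore measure only the spread between these arrays, and their number limits the precision. All levels below are log2 of the deposited intensity of a probe set, and all differences are log2, old minus young. Levels of different genes are not compared, since probe sets differ in brightness.

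The old arrays were not alike. Across all probe sets, the correlation with a young array was 0.622 to 0.703 for old replicates 1 and 2 and 0.976 to 0.984 for old replicate 3. A background level, called the receptor level here, was set on each array from 1212 probe sets for receptors of smell and pheromones, as their 95th percentile. This level was 6.29 and 6.20 for old replicates 1 and 2, 5.02 for old replicate 3 and 4.57 to 4.75 for the young arrays. Markers of B progenitors were above it for 11 of 11 measured genes on old replicate 3 and each young array, and for 5 and 7 on old replicates 1 and 2. Their summed intensity ranged from 2998 to 8881 on the old and from 9829 to 10417 on the young arrays. Neutrophil markers were above it for 8 of 8 genes on old replicate 3 and the young arrays and for 2 and 3 on old replicates 1 and 2, with sums of 1963 to 8424 and 7925 to 10086. The sums of other lists were 155 to 234 in old and 136 to 223 in young arrays for 3 erythroid genes. They were 146 to 243.5 and 139 to 184 for 6 T and NK cell genes, and 146 to 202 and 170 to 191 for 4 plasma cell genes. For 4 macrophage genes they were 116.5 to 340 and 456.5 to 992. Of these 4 only Lyz2 had a lower old mean (-3.24). The 3 others, Csf1r, Adgre1 and Cd14, had higher old means (0.22, 0.59 and 0.59). These 3 were within the receptor level on every old array, so no rise is read from them. On old replicate 3 they stood at -0.05, -0.02 and -0.03 from the young mean. The part of cell makeup and of array signal in the results below was not tested. In such sorted populations fewer cells of a type and less RNA per cell cannot be told apart.

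Initiation factor genes had lower means in the old group for 43 of 49 genes, with a median difference of -1.83 against 0.37 over all 19938 genes. The median over all genes is itself shifted, and with arrays centred on their median it was 0.02 and that of the members -2.18. Of the 49 genes 10 were higher in old after quantile normalization and 2 after centring, against 6 without either. On old replicate 1 the median stood -2.62 from the young mean and on old replicate 2 -2.31, while on old replicate 3 it stood at -0.23. Over all genes these medians were 0.51, 0.46 and 0.04. On old replicates 1 and 2, 35 and 34 of the 49 genes were more than 1 below the young mean, where 22.8% and 22% of all genes were, and on old replicate 3 it was 2 genes, against 1.02%. Above the young mean lay 5, 5 and 6 members on old replicates 1, 2 and 3, against 64.1%, 63.6% and 55.8% of all genes. The young arrays were tight, with a median SD over the 49 genes of 0.12 (n = 3), against 1.28 (n = 3) over the old arrays. With 3 old and 3 young arrays limma called 0 of the 49 genes at an adjusted p under 0.05, and 0% of all genes, with a smallest adjusted p among the members of 0.101. At an unadjusted p under 0.05 stood 36 of the 49 and 9359 of all 19938 genes. The plot of all members by group shows the split among the old arrays.

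**Figure D1:**
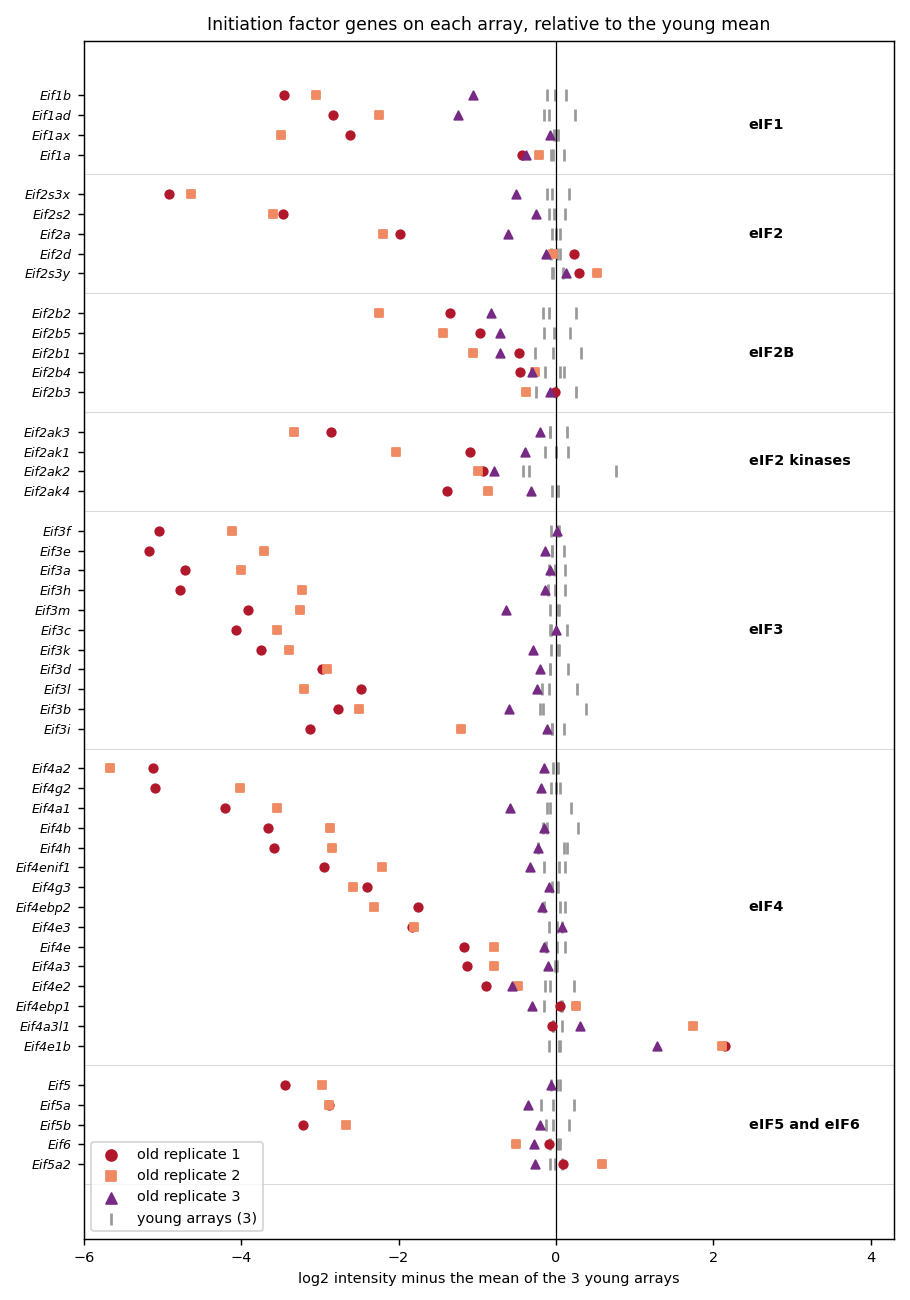
Log2 intensity of each of the 49 Eif genes on old replicates 1 (circles), 2 (squares) and 3 (triangles) minus the mean of the 3 young arrays (ticks), by group. Most circles and squares lie far to the left of the young arrays, while 36 of the 49 triangles lie within 0.5 of the young mean, and Eif4e1b lies to the right on each old array.

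All 3 old arrays lay below all 3 young arrays for 35 of the 49 genes, where 23.1% of all genes did so. For Eif4e1b and Eif2s3y all 3 old arrays lay above all young arrays, which 36.6% of all genes did, and in 12 genes the groups overlapped. Without old replicate 3, 39 genes were called lower and 2 higher by limma, against 28.8% and 53.4% of all genes, and 82.4% of all probe sets were called in that fit in either direction. With quantile normalization as well, a choice made after seeing the data, the calls were 34 lower and 5 higher, and with arrays centred on their median 43 and 1. Of the 49 genes 33 lay within the receptor level on both old replicates 1 and 2, so the size of their fall there is not measured. With the 26 of them that the young arrays place above that level held at it, the median difference without old replicate 3 was -1.67 in place of -2.54.

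The difference on each old array was also set against the level on the young arrays. Across the 49 genes the young mean and the difference on old replicates 1 and 2 correlated at r = -0.843 and -0.83, and across all genes at -0.819 and -0.813. On old replicate 3 it was -0.07 across the members and -0.477 across all genes. These points share the same arrays, and genes are not independent replicates. The young mean is also subtracted in each difference, which by itself gives a negative r where old levels vary little. Nothing is therefore concluded from these r. Of the 49 genes 27 belonged to the 10% of genes brightest on the young arrays. Over the 10% of probe sets brightest there, the median level was 9.07 to 9.15 on the young arrays, 8.92 on old replicate 3, and 6.03 and 6.40 on old replicates 1 and 2.

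**Figure D2:**
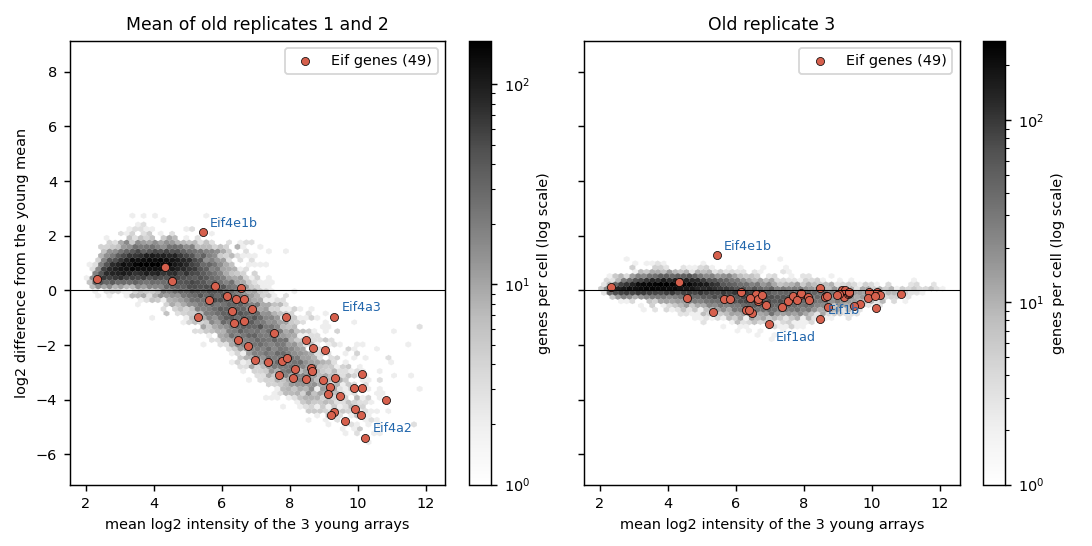
Mean log2 intensity on the 3 young arrays (x axis) against the log2 difference from that mean (y axis) for old replicates 1 and 2 averaged (left) and old replicate 3 (right). The young mean enters both axes, which by itself can give a downward band, so nothing is concluded from the band or its r. Grey cells count all 19938 genes on a log scale and red points are the 49 Eif genes, which follow the downward band on the left (r = -0.843 on old replicate 1) while on the right 36 of the 49 lie within 0.5 of 0 and Eif4e1b, Eif1ad and Eif1b lie more than 1 from it.

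RefSeq promoter windows, from 250 bases before to 50 after each annotated start on GRCm38.p6, were matched for 39 of the 49 genes. They are rich in G and C, with a median of 62.3% against 52.8% over 27025 genes, counting a gene with several starts by their mean. The E-box CACGTG, which reads the same on both strands and is bound by Myc among other factors, was found for 9 of 39 genes (23.1%), against 8.1% of all genes. It was found for Eif1b, Eif3a, Eif3f, Eif3k, Eif4a1, Eif4e, Eif4h, Eif5a and Eif5a2, whose differences ran from -3.05 to 0.13, while those of the 30 genes without it ran from -3.65 to 0.67. A terminal oligopyrimidine start, a C at the annotated start followed by at least 4 bases that are each C or T, is known from messages whose translation mTOR controls. It was present on the transcribed strand for 2 of the 39 genes (5.1%), Eif2s3x and Eif3f, against 3% of all genes. A match describes letters in a window and shows no binding. A member with several starts counted for the E-box if any of its windows held it, as for Eif4e and Eif5a. Members and all genes were not matched for G and C content or number of windows. Whether the shares differ beyond that was not tested. The 2 pyrimidine starts are printed from 30 bases before the start to 20 bases from it, with the pyrimidine run in capitals, because these are the members in which the search found such a start.
Eif2s3x, chrX:94212632-94212681, minus strand: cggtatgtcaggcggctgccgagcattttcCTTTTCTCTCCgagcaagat
Eif3f, chr7:108934385-108934434, plus strand: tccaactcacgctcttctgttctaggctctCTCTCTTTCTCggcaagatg
The E-box is shown in capitals for 5 genes with the bases around it, to compare its setting in members of different groups.
Eif1b, chr9:120492567-120492602, plus strand: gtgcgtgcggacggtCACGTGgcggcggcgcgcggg
Eif3k, chr7:28981912-28981947, minus strand: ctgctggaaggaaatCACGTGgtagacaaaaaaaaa
Eif4a1, chr11:69672592-69672627, minus strand: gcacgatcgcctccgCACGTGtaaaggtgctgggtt
Eif4e, chr3:138527025-138527060, plus strand: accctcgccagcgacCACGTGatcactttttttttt
Eif4h, chr5:134639485-134639520, minus strand: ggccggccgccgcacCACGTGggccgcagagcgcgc
The letters around the E-box differ between these genes, and its position relative to the start ranges from -228 (Eif4e) to -24 (Eif1b). Eif4e has more than 1 annotated start, and -228 is counted from the later one, whose window alone held the E-box.

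The eIF1 group holds factors that keep the scanning ribosome open until the start codon is found. Eif1ax, the X-linked gene of eIF1A, stood at 7.52, 6.64 and 10.06 on old replicates 1, 2 and 3 and at 10.11, 10.13 and 10.17 on the young arrays. Old replicate 3 was thus just below the young arrays and the other two far below, though above the receptor level (difference -2.06 ± 0.81, SE, adjusted p = 0.101 with limma). Eif1b, a close relative of the start codon factor Eif1, was at 5.02, 5.43 and 7.42 against 8.36, 8.60 and 8.47, so that all 3 old arrays were below each young array and old replicate 3 lay between. Eif1ad, which encodes a protein with an eIF1A-like domain, was at 4.14, 4.72 and 5.73 against 6.88, 6.82 and 7.21. Old replicates 1 and 2 were within the receptor level for both genes, with bounds of -2.23 and -0.73 on their fall without old replicate 3. Eif1a differed by -0.34 ± 0.20 (SE) and was not called in any of the 3 fits. Without old replicate 3, 3 of these 4 genes were called lower, against 28.8% of all genes.

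Of eIF2, the carrier of initiator tRNA, the beta and gamma subunits were measured by their own probe sets. Eif2s2, the beta subunit, was at 5.71, 5.60 and 8.94 in old and at 9.10, 9.17 and 9.30 in young (-2.44 ± 0.86, SE). Its other probe set differed by -1.48 ± 0.53 (SE). Eif2s3x, the X-linked gamma subunit, was at 4.71, 4.995 and 9.13 against 9.59, 9.52 and 9.80, the lowest p among the members without old replicate 3 (adjusted p = 4.94e-06 with limma, bound -3.39). Its Y-linked copy Eif2s3y was at 2.63, 2.86 and 2.47 against 2.29, 2.42 and 2.29, never above the receptor level, which leaves its change without a size, and with arrays centred on their median its sign turned. Both factors that can deliver initiator tRNA apart from eIF2 were above the receptor level on all 6 arrays. Eif2a, one of them, was at 6.71, 6.49 and 8.09 against 8.64, 8.69 and 8.74, with every old array below every young array (-1.60 ± 0.43, SE). Eif2d, the other, was at 6.80, 6.54 and 6.45 against 6.64, 6.59 and 6.51, and the groups overlapped (0.02 ± 0.21, SE, adjusted p = 0.934 with limma). Eif2d changed sign between settings, so no direction is given.

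The 5 eIF2B genes encode the exchange factor that reloads eIF2 with GTP and is blocked by phosphorylated eIF2. All 5 had lower old means, with differences from -1.48 to -0.16. In 4 of the 5 all old arrays lay below all young arrays, against 23.1% of all genes. Eif2b2, the beta subunit, was at 5.12, 4.22 and 5.64 against 6.38, 6.31 and 6.73 (-1.48 ± 0.38, SE, adjusted p = 0.101 with limma). Eif2b5, the catalytic epsilon subunit, was at 5.40, 4.94 and 5.66 against 6.35, 6.23 and 6.55 (-1.04 ± 0.26, SE). For both, old replicate 3 lay below every young array and above old replicates 1 and 2. Eif2b1 differed by -0.74 ± 0.26 (SE), Eif2b4 by -0.34 ± 0.20 (SE) and Eif2b3 by -0.16 ± 0.24 (SE), the last with overlapping groups. No eIF2B gene was above the receptor level on old replicates 1 or 2. Without old replicate 3, Eif2b1, Eif2b2 and Eif2b5 were called lower, against 28.8% of all genes, with bounds of only -0.06, -0.23 and -0.13.

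The 4 kinases that phosphorylate eIF2 each answer to a different stress. Eif2ak1 (HRI), which senses heme shortage, was at 6.44, 5.51 and 7.14 in old and at 7.39, 7.53 and 7.68 in young. Eif2ak2 (PKR), which senses double-stranded RNA and is induced by interferon, was at 4.39, 4.32 and 4.53 against 4.89, 4.97 and 6.08. Young replicate 3 stood apart from the other young arrays, and the old arrays were all within the receptor level, which is higher there, so no size is given. The young mean of Eif2ak2 (5.315) lay below that level on old replicates 1 and 2, so no direction is read from these arrays either. Eif2ak3 (PERK), the kinase of the endoplasmic reticulum, was at 4.82, 4.35 and 7.47 against 7.61, 7.82 and 7.61. Eif2ak4 (GCN2), which senses amino acid shortage, was at 5.26, 5.78 and 6.33 against 6.68, 6.67 and 6.60. All 4 had every old array below every young array, against 23.1% of all genes. Differences were -1.17 ± 0.41 for Eif2ak1, -2.13 ± 0.77 for Eif2ak3 and -0.86 ± 0.30 for Eif2ak4 (SE). With all 6 arrays 0 were called (adjusted p = 0.101 each with limma, all 4 with an unadjusted p under 0.05). Eif2ak1 was within the receptor level on old replicate 2. Eif2ak3 and Eif2ak4 were within it on old replicates 1 and 2, with bounds of -1.44 and -0.405 on their fall without old replicate 3. Without old replicate 3, all 4 were called lower, Eif2ak2 without a bound, against 28.8% of all genes (adjusted p from 2.09e-05 to 0.0404 with limma). With quantile normalization as well, Eif2ak1 was no longer called (-0.84, adjusted p = 0.22 with limma). On old replicate 3 alone their adjusted p ran from 0.144 to 0.383.

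Genes listed for their link to eIF2 phosphorylation had no common direction. Of 11 such genes 5 had lower and 6 higher old means, with a median difference of 0.08, below the 0.37 of all genes. Atf4, the transcription factor translated under that condition, was at 5.81, 5.57 and 7.16 against a young mean of 7.45 ± 0.06 (SD, n = 3). Chac1, a target of Atf4 that degrades glutathione, was at 6.37, 6.63 and 5.34 against 4.96 ± 0.06 (SD, n = 3), and all old arrays were above all young arrays (1.16, adjusted p = 0.101 with limma). Ddit3, the death-promoting factor CHOP, was at 7.38, 7.53 and 7.82 against 7.65 ± 0.13 (SD, n = 3) with overlap. Without old replicate 3, 2 genes (Atf4, Ppp1r15b) were called lower and 4 (Atf3, Trib3, Chac1, Sesn2) higher, against 28.8% and 53.4% of all genes. Of these 4 only Chac1 was above the receptor level on any array.

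**Figure D3:**
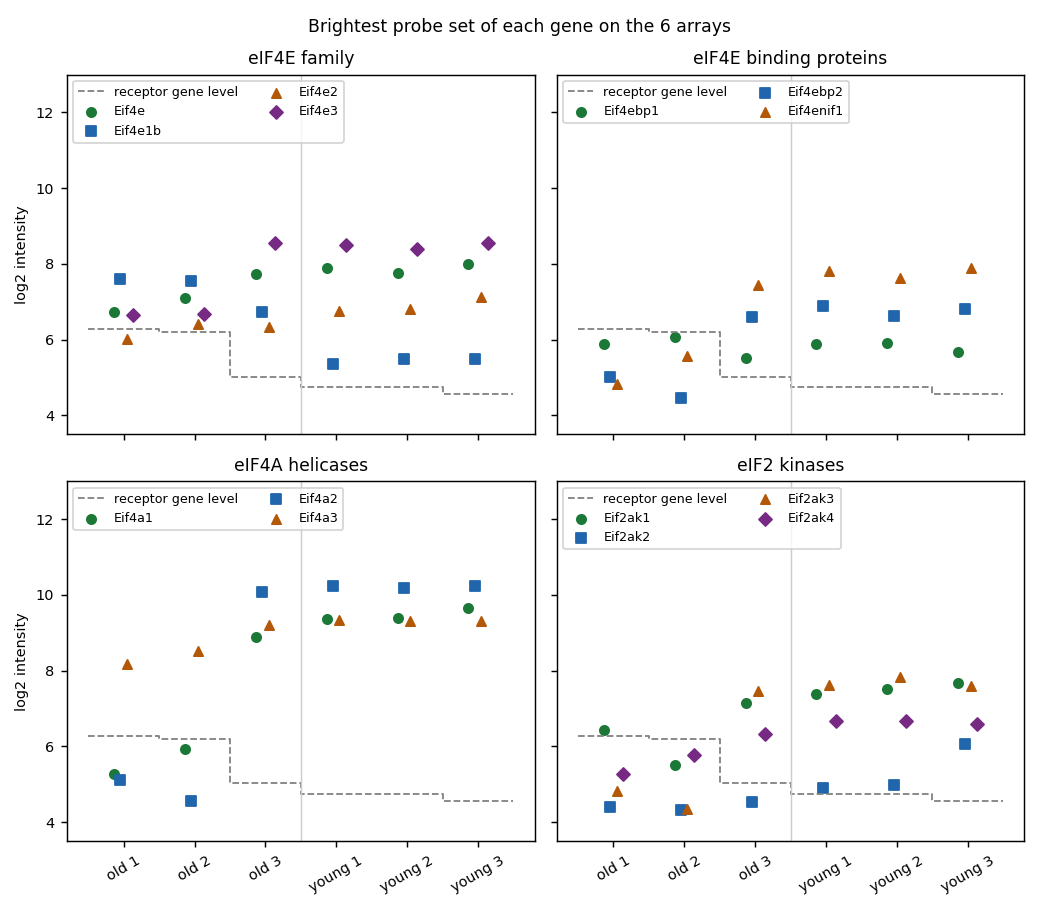
Log2 intensity of the brightest probe set of eIF4E family genes, their binding proteins, eIF4A helicases and eIF2 kinases on each of the 6 arrays. The dashed line is the receptor level of each array; Eif4e1b lies higher on each old array (6.72 to 7.59) than on each young array (5.35 to 5.50), and Eif4a3 stays above the line on all 6 arrays.

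The 11 measured subunits of eIF3, the large scaffold that binds the small ribosomal subunit, were lower together on old replicates 1 and 2. Their differences ran from -5.18 to -2.47 on old replicate 1 and from -4.11 to -1.21 on old replicate 2, with medians of -3.91 and -3.26. On old replicate 3 they ran from -0.64 to 0.02, with a median of -0.15. Of the 11 genes 0 were above the receptor level on old replicate 1, 4 on old replicate 2 and 11 on old replicate 3. Most of the sizes on old replicates 1 and 2 are therefore not measured. Eif3a, the largest core subunit, was at 5.20, 5.91 and 9.84 against 9.89, 9.82 and 10.02, so old replicate 3 lay among the young arrays. Eif3e was at 4.11, 5.58 and 9.15 against 9.24, 9.24 and 9.40, and Eif3f at 4.18, 5.11 and 9.23 against 9.15, 9.24 and 9.26. These 2 subunits belong to the PCI and MPN core of the complex. All 11 genes were called lower by limma without old replicate 3, against 28.8% of all genes, and 8 of 11 had all old arrays below all young arrays, against 23.1%.

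Eif3b and Eif3m had the lowest p among the eIF3 genes with all arrays. Eif3b, a core subunit, was at 4.59, 4.85 and 6.75 against 7.18, 7.15 and 7.73 (-1.95 ± 0.57, SE, adjusted p = 0.101 with limma). Eif3m was at 6.22, 6.88 and 9.50 against 10.06, 10.16 and 10.18 (-2.60 ± 0.79, SE), and its other probe set differed by -1.71 ± 0.59 (SE). In both genes old replicate 3 stood between the young arrays and the other old arrays. Eif3i was the eIF3 gene with the smallest mean difference (-1.48 ± 0.70, SE), since old replicate 2 was at 7.82 and old replicate 1 at 5.91 against a young mean of 9.03 ± 0.09 (SD, n = 3).

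Among the eIF4A helicases, Eif4a1 and Eif4a2 lay within the receptor level on old replicates 1 and 2 and Eif4a3 above it, a difference that was not tested. Eif4a1, the helicase of the cap-binding complex, was at 5.27, 5.93 and 8.89 against 9.36, 9.40 and 9.67, and its other 2 probe sets differed by -2.53 and -2.58, close to its own -2.78. Eif4a2, its near copy, was at 5.10, 4.55 and 10.07 against 10.25, 10.19 and 10.23 (-3.65 ± 1.36, SE, bound -3.98 without old replicate 3). Eif4a3, the helicase of the exon junction complex, was at 8.19, 8.53 and 9.22 against 9.33, 9.31 and 9.31. It remained above the receptor level on all 6 arrays, and every old array lay below every young array, but its difference of -0.67 ± 0.30 (SE) turned to 0.60 ± 0.27 (SE) after quantile normalization, and to 0.88 (adjusted p = 0.00222 with limma) when old replicate 3 was also left out. On 2 further probe sets that name both Eif4a3 and Eif4a3l1 the difference was -1.91 on each, so the probe sets disagree in size. Eif4a3l1, annotated as a gene resembling Eif4a3, was within the receptor level on all 6 arrays. Whether probe sets read near copies of these genes was not tested.

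Scaffold and helper genes of the cap complex were low on old replicates 1 and 2 and near the young arrays on old replicate 3. Eif4g2, a scaffold related to eIF4G that lacks the cap-binding protein's site, was at 5.003, 6.08 and 9.91 against 10.04, 10.10 and 10.15. Eif4g3 was at 5.51, 5.34 and 7.83 against 7.93, 7.87 and 7.95. Eif4b and Eif4h, which stimulate the helicase, differed by -2.23 ± 0.84 and -2.22 ± 0.81 (SE), with old replicate 3 inside the young range for both.

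The cap-binding family was split. Eif4e, the cap-binding protein itself, is given by the brightest of its 3 probe sets, at 6.72, 7.10 and 7.73 against 7.90, 7.75 and 7.997. Every old array was below every young array (-0.70 ± 0.30, SE), but after quantile normalization the difference turned to 0.30, and its other 2 probe sets differed by 0.50 and -1.34, so no direction is given for Eif4e. Eif4e2, which represses translation at bound messages, was at 6.005, 6.41 and 6.34 against 6.75, 6.81 and 7.12, with all 3 old arrays at similar levels below the young ones (-0.64 ± 0.23, SE). Eif4e3 was at 6.65, 6.67 and 8.56 against 8.49, 8.38 and 8.55, and old replicate 3 was above every young array.

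Eif4e1b, a relative of Eif4e known mainly from oocytes, was the only one of the 7 members above the receptor level on all 6 arrays whose old arrays all lay above its young arrays. It was at 7.59, 7.55 and 6.72 in old and at 5.35, 5.50 and 5.48 in young. All old arrays were above all young arrays by more than 1, including old replicate 3. Its mean was 7.29 ± 0.49 (SD, n = 3) in old and 5.44 ± 0.08 (SD, n = 3) in young, a difference of 1.85 ± 0.29 (SE) with an unadjusted p of 0.000419 and an adjusted p of 0.101 with limma. It was called higher without old replicate 3 (2.13 ± 0.13, SE, adjusted p = 2.33e-05) and on old replicate 3 alone (1.28 ± 0.13, SE, adjusted p = 0.00783), fits that share the young arrays. With quantile normalization the latter was 1.17 ± 0.11 (SE, adjusted p = 0.00381), and in each of the settings run for it the difference stayed above 0. Its other probe set was within the receptor level on all 6 arrays, at 5.15, 5.38 and 4.77 against 4.18, 4.28 and 4.49, so no change of the gene as a whole is read from 1 probe set. Of 3 germ cell genes, Zp3, Gdf9 and Ddx4, 0 were above the receptor level on any array. All 3 were nonetheless higher on every old than on every young array, against 36.6% of all genes, with differences of 1.31, 0.72 and 0.59. Without old replicate 3 they were called higher, as were Eif4e1b and 53.4% of all genes. The part of these germ cell genes in the result for Eif4e1b was not tested.

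The repressors of eIF4E were measured by 3 genes. Eif4ebp1, the binding protein that mTOR phosphorylates, was at 5.88, 6.08 and 5.52 against 5.89, 5.90 and 5.67, with overlap and no settled sign (0.005 ± 0.23, SE, adjusted p = 0.986 with limma). It was within the receptor level on old replicates 1 and 2. Eif4ebp2, its relative, was at 5.02, 4.46 and 6.59 against 6.88, 6.61 and 6.82, with every old array below every young one (-1.41 ± 0.53, SE). Eif4enif1, the carrier that moves eIF4E into the nucleus, was at 4.83, 5.57 and 7.45 against 7.82, 7.63 and 7.89 (-1.83 ± 0.63, SE), and its other probe set differed by -0.59 ± 0.29 (SE). Of the 15 eIF4 genes 12 were called lower and 1 higher by limma without old replicate 3, against 28.8% and 53.4% of all genes.

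Of the 5 genes of eIF5 and eIF6, which act in start site selection and subunit joining, Eif5, Eif5a and Eif5b were called lower without old replicate 3, against 28.8% of all genes. Eif5, which triggers GTP hydrolysis on eIF2, was at 5.88, 6.35 and 9.26 against 9.25, 9.33 and 9.38, and old replicate 3 lay among the young arrays. Eif5b, which joins the large subunit, was at 5.45, 6.004 and 8.46 against 8.63, 8.55 and 8.83. Eif5a, which carries the modified residue hypusine and aids elongation, was at 5.27, 5.26 and 7.80 against 8.12, 7.96 and 8.38 (-2.04 ± 0.68, SE), while its other probe set, at 6.23, 6.59 and 6.97 against 7.10, 6.83 and 7.25, differed by -0.46 ± 0.27 (SE). Eif5a2 was within the receptor level on all 6 arrays. Eif6, which keeps large subunits apart from small ones, was at 6.32, 5.91 and 6.14 against 6.34, 6.44 and 6.47 (-0.29 ± 0.21, SE, adjusted p = 0.258 with limma), and all old arrays were below all young ones by a narrow margin.

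**Figure D4:**
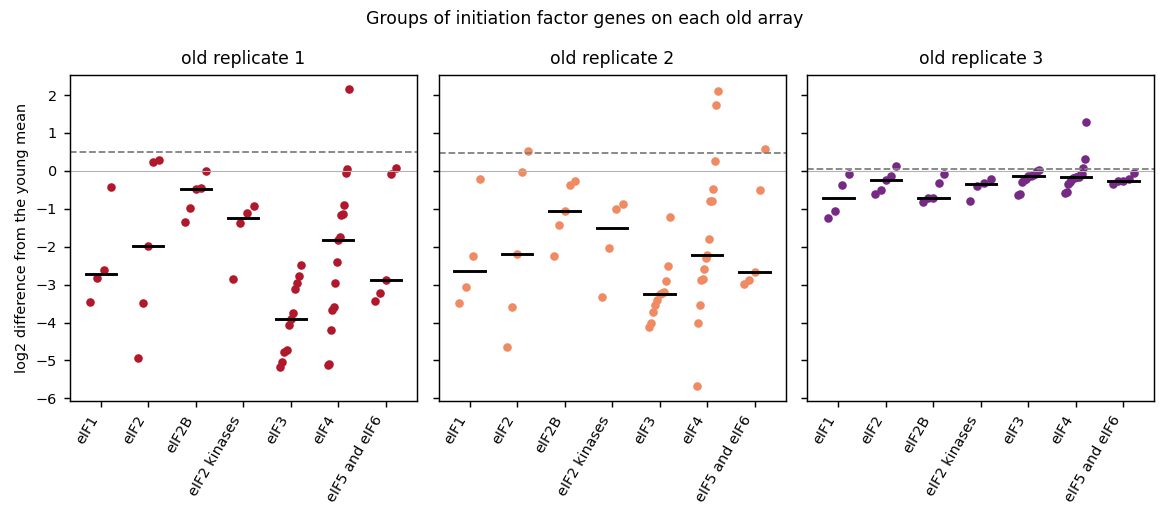
Log2 difference from the young mean of each gene (points) and the median (bars) of 7 groups of Eif genes on old replicates 1, 2 and 3; the dashed line is the median of all 19938 genes. Medians of eIF3 were -3.91, -3.26 and -0.15 on the 3 arrays and those of eIF2B were -0.47, -1.05 and -0.71. On old replicates 1 and 2 only 9 and 14 of the 49 genes were above the receptor level, so sizes there are not compared between groups.

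Old replicate 3, the old array that resembled the young ones, was also set against them alone, with its spread assumed to be that of the young arrays. Limma called 6 of the 49 genes lower and 1 higher, against 5.24% and 1.33% of all genes. The 6 were Eif1ad (-1.24 ± 0.17, SE, adjusted p = 0.015), Eif1b (-1.06 ± 0.14, SE, adjusted p = 0.0144), Eif2a (-0.61 ± 0.13, SE, adjusted p = 0.0367), Eif2b2 (-0.83 ± 0.18, SE, adjusted p = 0.0409), Eif2b5 (-0.72 ± 0.16, SE, adjusted p = 0.0422) and Eif3m (-0.64 ± 0.13, SE, adjusted p = 0.0337). The one that rose was Eif4e1b. With quantile normalization as well, Eif2a was no longer called (-0.35, adjusted p = 0.105 with limma) and 5 genes were lower, and with arrays centred on their median 8 were. The other probe set of Eif3m was not called (-0.32, adjusted p = 0.152 with limma). All 7 calls rest on a single old array. The group medians there were -0.72 for eIF1, -0.71 for eIF2B, -0.36 for the kinases and -0.15 for eIF3, and the difference between groups was not tested.

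Other genes of protein synthesis were counted in the same way, against 28.8% of all genes called lower and 53.4% higher without old replicate 3, and 5.24% lower on old replicate 3 alone. Of 16 measured partners of the initiation factors 16 had lower old means (median -2.16), and 13 were called lower without old replicate 3. Pabpc1, the poly(A) binding protein that ties the tail to eIF4G, was at 6.85, 7.11 and 11.26 against 11.26 ± 0.08 (SD, n = 3), while Mcts1, a partner in ribosome recycling, was at 7.76, 7.59 and 7.29 against 7.84 ± 0.19 (SD, n = 3). Paip1, which binds Pabpc1, was the partner called on old replicate 3 alone, lower with adjusted p = 0.0345. Of 8 elongation and termination genes 7 had lower old means (median -2.38), and 7 were called lower and 1 higher without old replicate 3, the latter being Eef2k, the kinase that inhibits elongation factor eEF2, at 7.07, 6.89 and 6.28 against 6.48 ± 0.14 (SD, n = 3). Eef1e1 was the 1 of these 8 called on old replicate 3 alone, lower with adjusted p = 0.0314. Of 8 upstream signalling genes 8 had lower old means (median -0.70) and 7 were called lower without old replicate 3. On old replicate 3 alone 2 of them were called lower, Rheb, the GTPase that activates mTOR (adjusted p = 0.0115), and Tsc1, a subunit of the complex that restrains Rheb (adjusted p = 0.019). Mtor itself stood at 5.52, 5.41 and 5.96, where the young mean was 6.46 ± 0.14 (SD, n = 3). Its fall has a bound of only -0.216 when old replicate 3 is left out, since Mtor did not exceed the receptor level on old replicates 1 or 2. Only 5 of 16 partners exceeded that level on each of these arrays, as did 2 of 8 signalling genes. Of 8 elongation and termination genes 3 exceeded it on old replicate 1 and 4 on old replicate 2. The 3 list medians therefore rest partly on falls whose size is not measured. With all 6 arrays limma called 0 genes of these 3 lists, and at an unadjusted p under 0.05 stood 11 partners, 5 elongation and termination genes and 3 signalling genes, against 9359 of all 19938 genes.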

How the data were processed

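RNA of sorted pro-B and pre-B cells from 3 old and 3 young arrays was measured on Affymetrix whole-transcript arrays. The deposited table holds 1 intensity per probe set and array on a linear scale, made by the authors with RMA per the submitters' processing notes (version not given in the sources used here). No columns were left unmapped. Log2 of the intensity was tested with limma 3.58.1 in R 4.3.3 (2-sided), with Benjamini-Hochberg adjustment over the 23410 of 28940 probe sets that name a gene. Probe sets naming several genes (1621) entered the fit and no gene count, and 5530 name none. The calling threshold was an adjusted p of 0.05.

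The members and lists were chosen with earlier results of these data known. The rule for genes with values on each array took the 4 kinases, the Eif4ebp genes, Eif2s3x and Eif2s3y, and in each group the 2 genes with the smallest p in each direction and the 2 above the receptor level on all 6 arrays that lay nearest to young on old replicates 1 and 2, which gave 26 genes. Every probe set is described where probe sets differ in sign. The other members with such values were added to fill their group after values were seen. The receptor level and the combined settings were also chosen after seeing the data. The fit was tested on simulated arrays drawn with the means and spread of the young arrays. The wider spread of the old arrays was not simulated.

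Replicate numbers appear in both groups. Deviations of same-numbered arrays correlated at 0.157, 0.15 and 0.279, each above the limit of 0.1 set for a pairing, but old replicate 1 with young replicate 2 (0.153) and old replicate 2 with young replicate 1 (0.141) were as well. The labels do not say what the numbers share, so a pairing would come from the data alone, and these do not single out the pairs of replicates 1 and 2. Alternatives were median centring, quantile normalization, array weights, a dim filter, all probe sets, the mean of a gene's probe sets, trended moderation, the replicate block and leaving out arrays.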

Additional observations from a re-analysis of the deposited data

How the results depend on the processing

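With all 6 arrays 0 members and 0 probe sets were called. That held in limma with the replicate block (pairing by number; smallest adjusted p of a member 0.081, median -1.83). The block was fitted only with all 6 arrays, where it changed no call. Leaving out 1 array gave 0 to 41 member calls and 0 to 19285 probe set calls, the upper ends without old replicate 3, and a member median of -2.54 to -1.36. Array weights, whose estimation stopped before convergence, gave 44 and 19998. Old replicate 3 alone gave 7 and 1638 with a median of -0.23, 9 and 2675 with -0.36 after centring, and 6 and 1142 with -0.076 after quantile normalization. Without old replicate 3 the counts were 44 and 15407 after centring and 39 and 11663 after quantile normalization. The cause of these changes was not tested.

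Of the 49 members 6 changed sign after quantile normalization, 4 after centring and 6 on old replicate 3 alone. With quantile normalization and old replicate 3 alone 17 changed sign and 19 were higher in old. Eif2d was at -0.33 after centring, -0.027 with array weights, -0.13 on old replicate 3 alone, -0.081 without old replicate 1 (0.094 without old replicate 3) and -0.01 without young replicate 3. Centred, it was at -0.26 on old replicate 3 alone and -0.36 without that array, but quantile normalized it was at 0.79, and at 1.16 (adjusted p = 0.00388 in limma) without old replicate 3. Eif2s3y was at -0.028 after centring and -0.042 when old replicate 3 was also left out. Eif4a3 was at 0.60, 0.035 and 0.88 and Eif4e at 0.30, 0.072 and 0.41 after quantile normalization of all arrays, with old replicate 3 alone and without it. Eif4ebp1 was at -0.34 after centring, -0.30 on old replicate 3 alone, and -0.02, -0.12 and -0.07 without old replicate 1, old replicate 2 and young replicate 3, against 0.16 without old replicate 3. Its combined values on old replicate 3 alone were -0.43 centred and -0.23 quantile normalized, and without that array -0.30 centred and 0.55 quantile normalized (adjusted p = 0.0382 in limma). Eif5a2 was at -0.21 after centring, -0.27 on old replicate 3 alone, -0.29 after quantile normalization and -0.092 without old replicate 2, against 0.33 without old replicate 3. Combined, it was at -0.40 and -0.38 on old replicate 3 alone and -0.12 and -0.25 without it, centred and quantile normalized. On old replicate 3 alone after quantile normalization Eif2ak3 was at 0.044 and Eif4ebp2 at 0.026. Signal limits these values: 33 members lay within the receptor level on old replicates 1 and 2, where sizes are bounds.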

Other observations

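Of the 10 probe sets that name an Eif gene together with others, 4 name Eif1a with 7 predicted genes, and all 4 stood higher in the old group. The brightest was at 7.85, 8.76 and 6.63 on old replicates 1, 2 and 3 and at 6.25, 6.07 and 5.76 on the young arrays, so every old array was above every young array. The differences of the 4 were 1.72, 1.62, 1.73 and 1.84, each with an adjusted p of 0.101 in limma, and all 4 were above the receptor level on all 6 arrays. The probe set that names Eif1a alone was lower in old (-0.34), so these 4 give no value for Eif1a itself. Both probe sets of Eif3j1 with Eif3j2, copies of the eIF3 factor that aids binding of the small subunit, differed by -1.73 and -1.62. The probe set of Ankhd1 with Eif4ebp3 differed by -0.23 and that of Snora28 with Eif5 by -0.61.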
